A study of Mus musculus with 16 samples.

Results

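The comparison described here set isolated glomeruli of diabetic mice against renal cortex of diabetic mice, and asked which genes still mark glomeruli or tubules in the diabetic state. It used 8 of the 16 libraries of the series, 4 of each tissue, taken by their labels. The other 8 libraries, glomeruli and cortex of control mice, served to show how the same tissue difference stood without diabetes. All groups were wild-type mice labelled 24 weeks and of batch 1, so that every library shared genotype and age. The diabetic groups of both tissues had received the high-fat diet and streptozotocin, a toxin of the pancreatic beta cell, which the labels write as HFD/STZ. Effects of diet, toxin and diabetes cannot be told apart in these groups. Each label names the tissue as a whole, so a glomerular library holds the RNA of several cell types, and a cortex library holds mostly tubules with some glomeruli among them.

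The glomerulus filters plasma through a fenestrated endothelium, a basement membrane of type IV collagen and laminin, and the foot processes of podocytes, which are joined by the slit diaphragm. Mesangial cells, which are related to smooth muscle, hold the capillary loops together, and parietal epithelial cells line the capsule around them. The tubule then takes back glucose, phosphate, amino acids and protein in its proximal part and adjusts salt, water and acid further along. Proximal tubule cells make up most of the cortex, burn fatty acids and make glucose, and genes of these cells therefore separate cortex from glomeruli in healthy kidneys.

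Total counts were 36339294 to 41876031 per glomerular library and 57473100 to 72352656 per cortex library. Diabetic glomerular libraries 1 and 4 were far closer to each other than other pairs of their group, with a chi-square per gene of 6.69 against 66.2 to 97.9, and control glomerular libraries 3 and 4 likewise, at 2.76 against 45.7 to 84.4. Each pair was summed and counted as 1 sample, which left n = 3 diabetic glomerular samples (called 1+4, 2 and 3), n = 3 control glomerular samples and n = 4 of each cortex group. No label ties a library to an animal, and p-values therefore describe how much these samples vary, a variation that may be technical in part or in whole. Levels are CPM, the usual scaling of counts to library size, here with TMM factors, listed for glomerular samples 1+4, 2 and 3 and for cortex samples 1 to 4. A tissue difference is log2 of glomeruli over cortex ± SE. Gene lists were tested nowhere as sets, and their counts are read beside the counts over all genes. The 2 tissues were counted by the authors in different ways and on different gene annotations. A level difference between the tissues and that difference in counting cannot be told apart for a single gene, whereas a constant factor per gene and tissue cancels when the diabetic tissue difference is set against the control one.

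Of 16512 genes tested, 74.7% were called in the diabetic contrast: 6228 (37.7%) were called higher in diabetic glomeruli than in diabetic cortex and 6107 (37.0%) lower, at an adjusted p under 0.05 (edgeR). With a log2 difference of at least 2 the calls were 1729 (10.5%) and 2699 (16.3%). Samples of the tissues did not overlap for 12763 genes (77.3%), so a call by itself sets no gene apart here. The median difference over all genes was -0.0015 on the log2 scale. On log2(FPKM + 1) values that median was 0.37 and 69.8% of the calls were in the higher direction, against 50.5% on counts, so differences near 0 are read with this shift in mind.

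Among genes with the widest difference towards glomeruli were secreted signals, a keratin and a cell cycle inhibitor. Inhba, which encodes a subunit of activin A, stood at 397, 462 and 940.0 CPM in the diabetic glomerular samples and at 0.0712, 0.510, 0.314 and 0.245 CPM in diabetic cortex (11.02 ± 0.59, adjusted p = 4.26e-09). Wnt7a, a Wnt ligand, stood at 137, 161 and 87.4 CPM against 0.142, 0.123, 0.0785 and 0 CPM (10.46 ± 0.91, adjusted p = 3.31e-07). All glomerular samples of both genes lay far above all cortex samples. Prss22, a serine protease, was at 103, 121 and 57.1 CPM and had no count in any diabetic cortex library, so that it was at least 6643-fold higher, with the group's 4 libraries together given 3 counts. The same bound gave at least 5088-fold for Nupl1, a nuclear pore gene, 468-fold for the transcription factor gene Sp6, 416-fold for Serpinb2, 376-fold for Lrrc4c and 259-fold for Nptx2. These bounds cover counting error only. Krt17, a keratin of basal epithelia, stood at 43.7, 53.0 and 25.4 CPM and Cdkn2a, which encodes the cell cycle inhibitor p16 and the protein ARF, at 24.8, 27.3 and 46.8 CPM, and neither passed 0.141 CPM in any cortex sample. AI593442 (9.56) and Pakap (9.43) complete the 12 genes with the largest difference.

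The 12 genes furthest towards cortex were partly tubule genes and partly genes that hardly had counts in the glomerular libraries of either state. Hsd3b4, a steroid dehydrogenase of the proximal tubule, stood at 323, 305, 265 and 241 CPM in diabetic cortex and at 0.255, 0 and 0.196 CPM in diabetic glomeruli (-10.71 ± 0.56, adjusted p = 3.38e-09). The organic anion transporter gene Slco4c1 (-10.63), the protease inhibitor gene Serpina1a (-10.13), the kallikrein gene Klk1b4 (-9.95) and the glucuronosyltransferase gene Ugt1a6b (-10.07) stood on the same side. The complement gene C7 and the lymphatic chemokine gene Ccl21a had no count in diabetic glomeruli and were at least 446-fold and 233-fold lower there. Methig1 (-12.07), Snrpn (-12.04), Fkbp2 (-11.83), Chkb (-11.52) and Entpd4 (-10.30) stood near 0 in the glomerular table in both states. Entpd4, for example, was at 0.127 to 0.206 CPM in diabetic and 0.291 to 0.422 CPM in control glomeruli, against 151 to 219.8 CPM in diabetic cortex. In all, 62 genes with at least 10 CPM in both cortex groups stood under 1 part in 100 of that level in the glomeruli of both states, and 21 genes did so the other way round, Nupl1 and Pakap among them. The part of the 2 annotations in these differences was not tested.

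Podocyte genes marked the diabetic glomeruli clearly. Of 30 tested genes of the slit diaphragm and foot process, 28 were called higher in glomeruli and 2 lower, with a median difference of 2.98, against 37.7% of all genes called higher and a median of -0.0015. Nphs1, which encodes the slit diaphragm protein nephrin, stood at 372, 324 and 166 CPM in diabetic glomeruli and at 29.9, 34.2, 35.6 and 39.6 CPM in diabetic cortex (3.04 ± 0.21, adjusted p = 2.75e-08). Sample 3 was the lowest glomerular sample for this gene, and it still lay above every cortex sample. The intermediate filament gene Nes had the widest difference of the list, 918, 976 and 1156 against 26.4, 23.3, 33.8 and 27.6 CPM (5.19 ± 0.14, adjusted p = 2.12e-11). Kirrel, which encodes the nephrin partner NEPH1 (3.81 ± 0.14, adjusted p = 1.15e-10), the phospholipase gene Plce1 (3.63 ± 0.18) and the actin regulator gene Inf2 (3.61 ± 0.17) followed. Sample 3 was the lowest of the 3 glomerular samples for 24 of the 30 genes, and the summed list stood at 580.4, 555 and 419.9% of the diabetic cortex mean in samples 1+4, 2 and 3.

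Both list members that marked cortex did so in either state. Arhgap24, a regulator of Rac signalling, stood at 149, 114 and 87.1 CPM in diabetic glomeruli and at 219, 222, 215 and 227 CPM in diabetic cortex (-0.92 ± 0.17, adjusted p = 1.94e-04). The microtubule gene Mapt stood at 99.6, 83.1 and 43.3 against 177, 189, 169 and 196 CPM (-1.28 ± 0.23, adjusted p = 2.13e-04). In controls the differences were -0.50 and -1.32.

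The control contrast had nearly the same median over this list, 2.96, but single genes moved between states. By the test of the difference between the diabetic and the control contrast, 1 of the 30 genes was called wider in the diabetic state and 8 narrower, against 18.8% of all genes shifted towards glomeruli and 16.2% towards cortex (35.0% in all). The one that widened was Cd2ap, an adaptor that ties nephrin to actin, with a tissue difference of 1.49 in diabetic and 0.49 in control mice (difference 1.00 ± 0.15, adjusted p = 2.41e-04). Kirrel narrowed from 5.18 to 3.81 and Inf2 from 4.70 to 3.61. Nphs1 gave 2.96 and 3.04, a difference of 0.08 ± 0.29 that did not pass (adjusted p = 0.852).

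Transcription factors of the podocyte also marked diabetic glomeruli, yet by less than in controls. All 8 were called higher in diabetic glomeruli, with a median of 2.59 against 4.38 in controls, and 6 of the 8 were called narrower in the diabetic state. Lmx1b, which maintains podocyte differentiation, stood at 44.0, 42.5 and 43.1 CPM against 2.53, 2.34, 3.04 and 2.94 CPM in cortex (3.99 ± 0.10, adjusted p = 2.12e-11). The 3 glomerular values were nearly equal, unlike those of Nphs1. Foxd1, a regulator of kidney stroma and podocytes, stood at 42.9, 42.8 and 45.0 against 1.55, 1.02, 2.18 and 1.47 CPM, and its tissue difference went from 7.77 in control to 4.81 in diabetic mice (difference -2.96 ± 0.51, adjusted p = 8.56e-04). Foxc2 went from 4.37 to 2.77 (difference -1.61 ± 0.20, adjusted p = 5.05e-05). Wt1, which encodes the zinc finger factor WT1 and is a defining gene of podocytes, stood at 138, 128 and 114 against 5.57, 8.07, 8.18 and 8.88 CPM, with 4.38 in control and 4.05 in diabetic mice (difference -0.33 ± 0.21, adjusted p = 0.235).

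The promoter of Nphs1 is shown because nephrin is the defining gene of the slit diaphragm and WT1 is a known regulator of podocyte genes. It is taken from RefSeq (GRCm38.p6, chr7:30459808-30460107, plus strand) and runs from 250 bases before to 50 bases after the start. Capitals mark the letters GTGGGNG, a short form of the WT1 motif, searched on both strands.

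Nphs1: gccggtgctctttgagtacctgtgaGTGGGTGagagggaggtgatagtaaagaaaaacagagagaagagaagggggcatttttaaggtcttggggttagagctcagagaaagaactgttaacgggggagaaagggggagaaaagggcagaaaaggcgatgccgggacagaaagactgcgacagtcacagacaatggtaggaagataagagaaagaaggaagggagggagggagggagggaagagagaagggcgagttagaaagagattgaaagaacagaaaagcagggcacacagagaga

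This motif is short and stands in many promoters. It was found in 42.1% of the 12887 tested genes that have a promoter in the table, in 15 of 23 slit diaphragm and foot process genes (65.2%), in 1 of 5 podocyte transcription factors and in 44.7% of 995 genes that marked glomeruli at a log2 difference of at least 2 in both states. A match describes letters in this window and is not a binding site by itself.

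Basement membrane genes marked diabetic glomeruli less than control glomeruli. Of 13 tested genes 12 were called higher in diabetic glomeruli, with a median of 2.00 against 2.86 in controls, and 9 were called narrower and 2 wider in the diabetic state. Nid2, which encodes a nidogen, was the exception, at -0.34 ± 0.19 (adjusted p = 0.118), and was called lower without diabetic glomerular sample 1+4 and with sample 2 as the only diabetic glomerular sample. Col4a1, the ubiquitous chain of type IV collagen, stood at 1504, 1527 and 2137 CPM in glomeruli and 326, 398, 404 and 356 CPM in cortex, and the difference went from 4.17 in control to 2.22 in diabetic mice (difference -1.96 ± 0.19, adjusted p = 6.71e-06). Col4a2, its partner, went from 4.13 to 1.95. Col4a3, a chain of the mature glomerular membrane that podocytes make, went from 2.49 to 1.22 (difference -1.26 ± 0.32, adjusted p = 0.00875). Agrn, the heparan sulfate proteoglycan agrin, moved the other way: it stood at 1159, 1258 and 913 against 189, 237, 237 and 202 CPM, and its difference widened from 0.60 to 2.36 (difference 1.76 ± 0.18, adjusted p = 1.26e-05). Hspg2, which encodes perlecan, was at 3.25 and did not pass between states (-0.54 ± 0.25, adjusted p = 0.116).

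**Figure D1:**
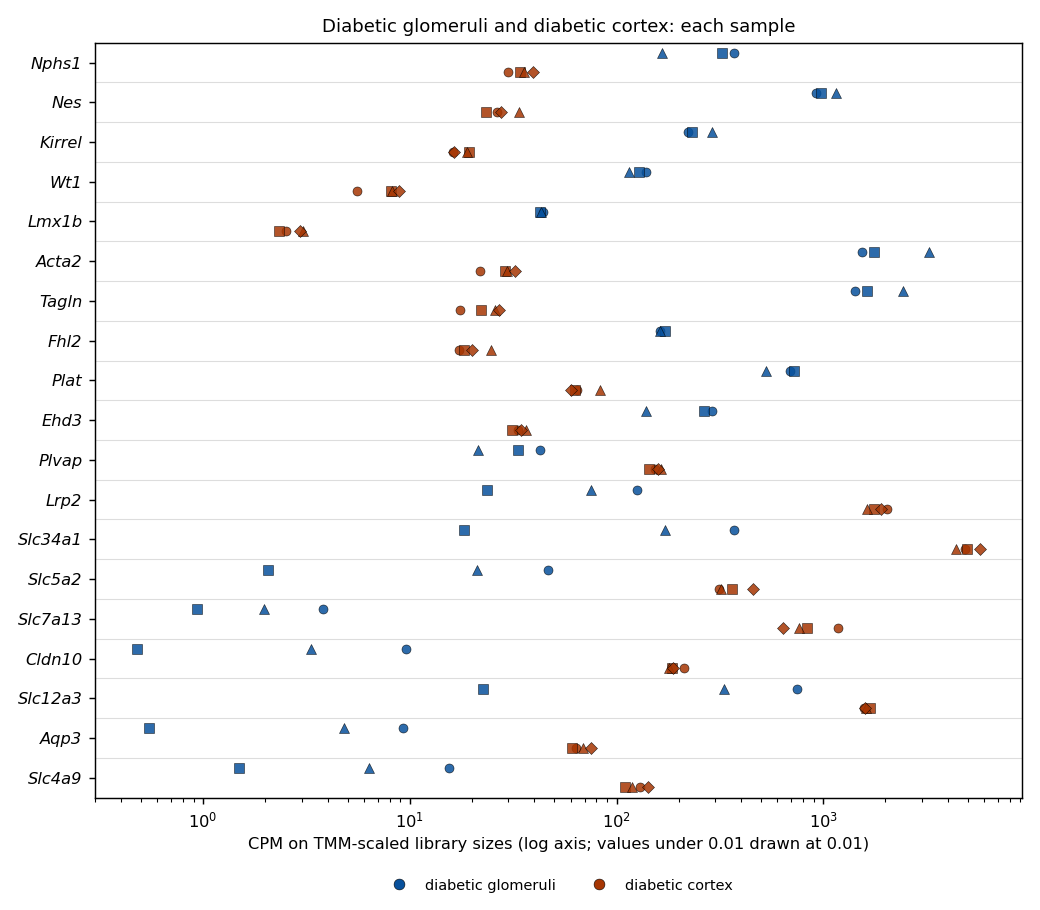
CPM of 19 genes in each of the 3 diabetic glomerular samples (blue) and the 4 diabetic cortex samples (brown), on a log axis; circles, squares, triangles and diamonds are samples 1 (1+4 for glomeruli), 2, 3 and 4. Podocyte, muscle and most endothelial genes lie to the right in glomeruli, and the tubule genes from Lrp2 down lie to the right in cortex, with glomerular sample 2 (squares) the lowest for Lrp2, Slc34a1, Slc5a2, Slc12a3 and Aqp3.

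Mesangial and muscle genes also stood higher in glomeruli. Of 12 mesangial genes 10 were called higher in diabetic glomeruli and 1 lower (median 1.85, in controls 2.89), and 6 were called narrower than in controls. The shares over all genes were 37.7% called higher and 16.2% shifted towards cortex between states. The LIM protein gene Fhl2 stood at 163, 172 and 163 CPM against 17.3, 18.2, 24.8 and 20.1 CPM (3.04 ± 0.13, adjusted p = 3.16e-10), the intermediate filament gene Des at 137, 143 and 236 against 12.1, 13.1, 15.6 and 12.6 CPM (3.69 ± 0.25) and the growth factor gene Ptn at 54.6, 45.5 and 22.8 against 2.78, 4.22, 3.45 and 2.72 CPM (3.64 ± 0.30). Ptn was lowest in sample 3, in which Des was highest. Cspg4, which encodes the pericyte proteoglycan NG2, narrowed from 2.67 to 1.39, and Pdgfrb, the receptor that draws mesangial cells into the tuft, from 3.10 to 1.42 (difference -1.68 ± 0.24, adjusted p = 1.67e-04). The lower gene, the angiotensin receptor gene Agtr1a (-0.48 ± 0.17, adjusted p = 0.0207), was not called on log2(FPKM + 1), where it stood on the other side of 0, nor without diabetic glomerular sample 3.

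Of 10 smooth muscle and renin genes 7 were called higher in diabetic glomeruli, against 37.7% of all genes, and 3 (Myh11, Rgs5 and Ren1) were not called (median 1.81, in controls 3.36). All 8 that differed between states were narrower in the diabetic one. Acta2, smooth muscle actin, stood at 1547, 1763 and 3231 CPM against 21.9, 28.7, 29.6 and 32.4 CPM (6.28 ± 0.28, adjusted p = 5.29e-10), Tagln at 1429.8, 1626 and 2429 against 17.5, 22.1, 25.7 and 26.9 CPM (6.31 ± 0.22) and Cnn1, calponin, at 106, 116 and 244 against 1.05, 0.686, 1.08 and 1.29 CPM (7.25 ± 0.51). Sample 3 was the highest for all 3 genes. Smtn, smoothelin, was at 2.39 ± 0.12. Myh11, the myosin heavy chain of mature smooth muscle, did not pass in the diabetic contrast (20.3, 15.3 and 23.1 against 12.8, 14.6, 15.2 and 15.1 CPM, 0.44 ± 0.19, adjusted p = 0.050029), whereas its control difference was 3.61 (difference between states -3.17 ± 0.28, adjusted p = 3.37e-06). Mylk, the myosin kinase gene, stood at 0.33 in diabetic and 1.65 in control mice.

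More endothelial genes were called higher in diabetic glomeruli than lower, and none of them was called different between states. Of 20 genes 12 were called higher in diabetic glomeruli, 1 lower and 7 not called (median 0.77, in controls 0.74). Over all genes 37.7% were called higher, 37.0% lower and 35.0% different between states. On log2(FPKM + 1) 18 of the 20 were called higher and 1 lower. By the test between states 0 of the 20 were called by edgeR and 0 by DESeq2, and 0 had an unadjusted p under 0.05 in edgeR. Several genes known for the glomerular capillary were on the glomerular side. Ehd3, a membrane trafficking gene of glomerular endothelium, stood at 288, 265 and 139 CPM against 33.4, 31.2, 36.3 and 34.5 CPM (2.77 ± 0.20, adjusted p = 4.34e-08), Plat, tissue plasminogen activator, at 692, 719.9 and 526 against 64.2, 62.8, 82.9 and 60.3 CPM (3.26 ± 0.24) and the transcription factor gene Gata5 at 13.2, 11.9 and 5.77 against 0.463, 0.527, 0.432 and 0.531 CPM (4.39 ± 0.28). Plvap, which encodes the diaphragm protein of fenestrae that glomerular capillaries lack, was the gene called lower, at 42.9, 33.2 and 21.3 against 153, 143, 164 and 159 CPM (-2.25 ± 0.25, adjusted p = 2.23e-06). Sample 3 was the lowest glomerular sample for all 20 genes, and the summed list stood at 269, 233 and 151% of the diabetic cortex mean in samples 1+4, 2 and 3. Without sample 3, 15 of the 20 were called higher, and without sample 1+4, 9 were. In bulk RNA, fewer cells of a type and less RNA per cell cannot be told apart.

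Of 6 parietal epithelial genes 4 were called higher in diabetic glomeruli. Akap12, a scaffold protein gene, stood at 829, 949 and 982 CPM against 33.7, 39.6, 53.1 and 28.9 CPM (4.57 ± 0.30, adjusted p = 1.64e-08) and Ncam1, an adhesion molecule gene, at 110.0, 126 and 216 against 2.49, 2.57, 3.36 and 2.59 CPM (5.78 ± 0.22). Cldn1, a claudin of the parietal layer, stood at 248, 277 and 135 against 34.4, 41.3, 46.5 and 38.3 CPM, with differences of 2.42 in control and 2.46 in diabetic mice that were not called different (difference 0.04 ± 0.28, adjusted p = 0.931). Cd9 and Pax2 turned towards glomeruli: Cd9, a tetraspanin gene of activated parietal cells, went from -0.87 to 0.84 (difference 1.71 ± 0.21, adjusted p = 6.37e-05), and Pax2, a nephron lineage factor, from -2.75 to 0.64 (difference 3.39 ± 0.51, adjusted p = 3.27e-04), the latter value not called by itself (adjusted p = 0.109). The 6 fibroblast genes pointed both ways. Col1a1 (574, 642 and 1985 against 22.4, 61.7, 64.3 and 41.3 CPM, 4.49 ± 0.46) and Col1a2 (3.86 ± 0.35) marked glomeruli, most of all sample 3, while the proteoglycan genes Dcn (1.10, 0.708 and 0.733 against 28.6, 30.1, 38.0 and 32.4 CPM, -5.21 ± 0.28) and Lum (-6.34 ± 0.83) and the receptor gene Pdgfra (-0.94) marked cortex.

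All 5 tubule segment lists marked cortex in the diabetic state, but by far less than in controls. Of 34 proximal tubule genes 34 were called lower in diabetic glomeruli, with a median of -5.06 against -9.02 in controls, and 33 of the 34 were called narrower between states. The medians were -2.46 and -7.12 over 8 thick ascending limb genes, -1.91 and -5.32 over 6 genes of the distal convoluted tubule, -3.10 and -6.93 over 8 principal cell genes, and -3.86 and -8.18 over 8 intercalated cell genes. In these 30 distal genes 29 were called lower in diabetic glomeruli, and 29 were called narrower than in controls. By comparison, 37.0% of all genes were called lower in diabetic glomeruli, and 18.8% were called shifted towards glomeruli between states.

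The summed level of each segment list was highest in diabetic glomerular sample 1+4 and lowest in sample 2. The summed proximal list stood at 4.24, 0.588 and 2.02% of the diabetic cortex mean in samples 1+4, 2 and 3. In control glomeruli it stood at 0.312 to 0.372% of the control cortex mean. Percents of control glomeruli are taken of the control cortex mean for every list. The thick ascending limb list stood at 20.7, 1.70 and 9.18% (controls 0.918 to 1.10%), the distal convoluted tubule list at 45.8, 2.58 and 20.4% (controls 1.76 to 2.12%), the principal cell list at 22.2, 4.83 and 15.5% (controls 0.858 to 0.958%) and the intercalated cell list at 14.6, 1.12 and 6.51% (controls 0.494 to 0.618%). Sample 1+4 was the highest for 33 of 34 proximal genes and sample 2 the lowest for 32 of them. The share of the cortex level was thus larger for each distal list than for the proximal list in every glomerular sample, diabetic or control, and none of these lists stood at 0 in any glomerular sample. With sample 2 as the only diabetic glomerular sample, its spread taken from the other groups, the proximal median was -8.36, near that of controls, and 7 proximal genes were called narrower than in controls in place of 33, with a median shift of 0.67 over the list. The narrowing of most proximal genes therefore rests on samples 1+4 and 3. On the same terms 4 of 8 thick ascending limb genes, 1 of 6 distal convoluted tubule genes, 4 of 8 principal cell genes, 1 of 8 intercalated cell genes and 10 of 18 nephron transcription factors were called narrower, against 10.3% of all genes called towards glomeruli at this setting. The single genes of the distal convoluted tubule and intercalated cell lists are near that share.

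**Figure D2:**
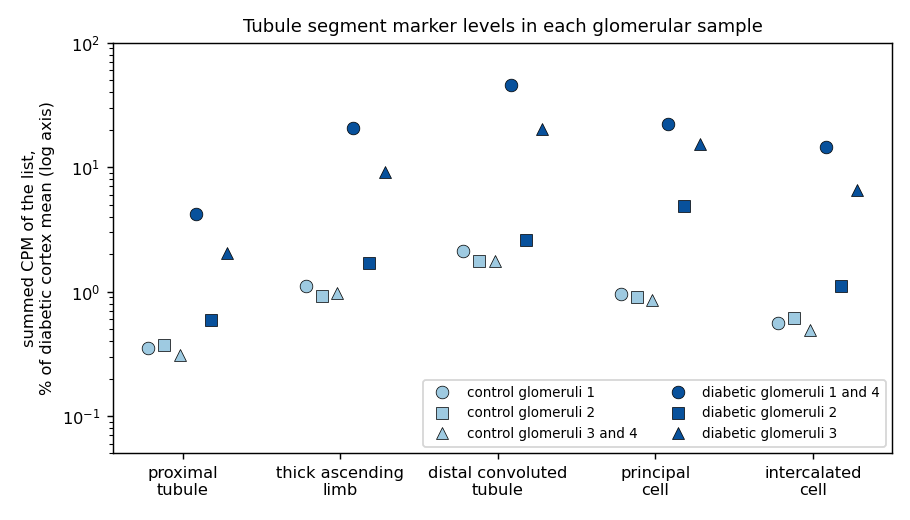
Summed CPM of 5 tubule segment lists in each glomerular sample on a log axis, as a percent of the mean of the 4 cortex samples of the same state. Light points are control glomeruli, set against control cortex, and dark points are diabetic glomeruli, set against diabetic cortex. The axis label names the diabetic mean, which holds for the dark points only. Diabetic samples 1+4 and 3 stand well above the controls in all 5 lists, up to 45.8% for the distal convoluted tubule, and sample 2 stands nearer to them.

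Single genes of the proximal tubule showed the same spread. Lrp2, which encodes the endocytic receptor megalin, stood at 2027, 1759, 1635 and 1899 CPM in diabetic cortex and at 126, 23.5 and 75.5 CPM in diabetic glomeruli (-4.61 ± 0.45, adjusted p = 7.79e-07). Slc34a1, the phosphate transporter of the brush border, stood at 4856, 4971, 4386 and 5754 against 372, 18.4 and 171 CPM (-4.74 ± 0.75, adjusted p = 8.18e-05), and Slc5a2, the glucose transporter SGLT2, at 312, 360.5, 319 and 456 against 46.4, 2.06 and 21.2 CPM (-3.96 ± 0.72, adjusted p = 2.80e-04). No glomerular sample reached the lowest cortex sample for these genes. Slc7a13, an amino acid transporter of the late proximal tubule, had the widest difference of the list, 1173, 830.4, 763 and 637 against 3.78, 0.936 and 1.98 CPM (-8.54 ± 0.54, adjusted p = 1.68e-08). Cyp7b1, a steroid hydroxylase gene (-6.93 ± 0.41), and Ggt1, which encodes the brush border enzyme gamma-glutamyltransferase (-4.71 ± 0.29), had adjusted p of 9.87e-09 and 6.90e-09. Cyp7b1 was about level across glomerular samples, at 1.03, 0.868 and 1.17 CPM.

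In the thick ascending limb list Cldn10, a claudin for sodium passage, stood at 213, 186, 180.0 and 187 CPM in cortex against 9.58, 0.480 and 3.32 CPM (-5.38 ± 0.66, adjusted p = 8.14e-06). The cotransporter gene Slc12a1, the target of loop diuretics, stood at 1091, 648, 1005 and 564 against 73.0, 9.84 and 33.9 CPM (-4.41 ± 0.69), and Egf, the growth factor gene of this segment, at -2.66 ± 0.51. Cldn16 and Cldn19, which form the pore for magnesium and calcium, behaved otherwise. Cldn16 was at 2.96, 2.63 and 0.807 CPM and Cldn19 at 8.43, 6.69 and 2.47 CPM in glomerular samples 1+4, 2 and 3, so that sample 2 stood above sample 3. Their tissue differences went from -7.43 to -2.26 and from -7.09 to -1.84 between control and diabetic mice (differences 5.17 ± 0.69, adjusted p = 1.09e-04, and 5.24 ± 0.61, adjusted p = 4.25e-05). Among distal convoluted tubule genes Slc12a3, the target of thiazides, stood at 1573, 1678, 1606 and 1588 against 745, 22.7 and 330.0 CPM (-2.14 ± 0.71, adjusted p = 0.0158), and Calb1, calbindin, at -2.53 ± 0.76. Trpm6, a magnesium channel gene, was the gene of this list that was not called, at 31.8, 13.3 and 14.9 CPM in glomeruli and 25.0, 19.9, 26.7 and 22.8 CPM in cortex (-0.23 ± 0.29, adjusted p = 0.486). Of these 6 genes 5 were called lower, 3 without glomerular sample 3 and 6 without sample 1+4.

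In the collecting duct, Aqp3, a water channel of principal cells, stood at 63.9, 60.9, 69.1 and 75.6 against 9.27, 0.548 and 4.82 CPM (-3.75 ± 0.56, adjusted p = 4.73e-05), and the sodium channel subunit gene Scnn1g at -2.97 ± 0.46. Hsd11b2, which shields the mineralocorticoid receptor from cortisol and corticosterone, stood at 137, 113, 129 and 119.9 against 35.9, 15.9 and 39.9 CPM (-2.03 ± 0.25), with sample 3 the highest glomerular sample. Avpr2, the vasopressin receptor gene, went from -6.13 in control to -2.05 in diabetic mice (difference 4.08 ± 0.59, adjusted p = 2.09e-04). Intercalated cell genes were led by the water channel gene Aqp6 (50.2, 44.3, 51.3 and 45.3 against 3.63, 0.434 and 0.904 CPM, -4.75 ± 0.62), the transporter gene Slc4a9 (-3.98 ± 0.56) and the proton pump subunit gene Atp6v1g3 (-4.08 ± 0.55), while Slc26a4, pendrin, narrowed from -8.06 to -3.74.

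Nephron transcription factors also stood nearer to the cortex level in diabetic than in control glomeruli. Of 18 tested, 12 were called lower and 3 higher in diabetic glomeruli (median -1.53 against -5.94 in controls), and 13 were called narrower. Tfap2b, a factor of the distal nephron, stood at 23.7, 15.6 and 13.7 against 40.7, 43.7, 47.1 and 39.6 CPM and went from -7.68 to -1.27 (difference 6.41 ± 0.30, adjusted p = 6.07e-08). Lhx1, a factor of the developing nephron, stood at 23.5, 16.7 and 19.5 against 26.2, 30.2, 23.8 and 27.1 CPM and was not called in the diabetic contrast (-0.43 ± 0.20, adjusted p = 0.0729), against -5.88 in controls. For both genes sample 2 lay near the other glomerular samples. With sample 2 alone the list's median narrowing was 3.24, against 0.67 for the proximal list. Hnf4a, the master factor of the proximal tubule, had a much lower value in sample 2, at 30.1, 1.26 and 12.1 against 845, 810.0, 673 and 747 CPM (-5.72 ± 0.77, adjusted p = 1.88e-05). Irx3 (-3.43 ± 0.16), Maf (-2.29 ± 0.22) and Esrrg (-3.28 ± 0.36) marked cortex as well, and Irx3 was level over the glomerular samples at 6.18, 5.94 and 6.94 CPM.

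Most genes that marked a tissue in controls still marked it in the diabetic state. Both contrasts rest on the same 2 ways of counting, so a gene set apart by the counting marks a tissue in both states. The part of such genes among the markers kept was not tested. In controls 78.4% of all genes were called between the tissues, 38.7% higher in glomeruli and 39.7% lower. Of 2031 genes called higher in control glomeruli by at least 2 on the log2 scale, 1362 (67.1%) were called by at least 2 in the diabetic state as well, 458 were called with a smaller difference, 204 were not called and 7 were called the other way. Their median difference was 3.34 in controls and 2.57 in diabetic mice. Of 3467 cortex markers of controls, 2391 (69.0%) were kept, 571 were called with a smaller difference, 420 were not called and 85 were called the other way. The median size of their difference went from 4.49 to 2.86. On log2(FPKM + 1) the markers kept at this bound numbered 1242 for glomeruli and 708 for cortex. The control markers on that scale were not counted, so these numbers give no share kept. Over all genes the test between states called 35.0%, with 3105 shifted towards glomeruli and 2681 towards cortex, so that 53.7% of the calls were towards glomeruli; with library totals in place of TMM scaling this share was 69.0%, and on log2(FPKM + 1) 64.3%. Without diabetic glomerular sample 1+4 it was 49.9% (2439 and 2446 genes), and with sample 2 as the only diabetic glomerular sample 46.8% (1778 and 2023 genes), so that the direction of the excess depends on these choices. By the test between states 838 of the glomerular markers were weaker and 41 stronger, and 1637 of the cortex markers were weaker and 32 stronger. Markers chosen in controls were picked for a large control value, and these counts describe genes so chosen. Chosen in the diabetic state instead, 1362 of 1729 diabetic glomerular markers (78.8%) and 2391 of 2699 diabetic cortex markers (88.6%) had been control markers. Among those diabetic markers 386 glomerular and 917 cortex genes were weaker than in controls, and 225 and 132 stronger.

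**Figure D3:**
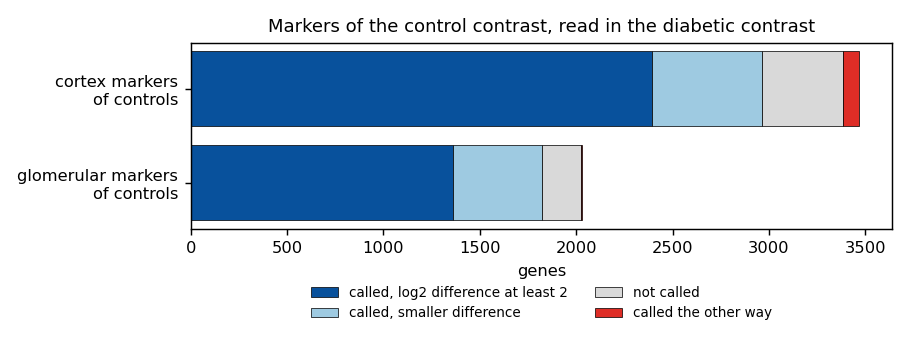
Number of genes that marked control cortex (top) and control glomeruli (bottom) by a log2 difference of at least 2, split by their state in the diabetic contrast. The dark parts, 2391 of 3467 and 1362 of 2031, are the markers kept, and the red parts, 85 and 7, are genes called the other way.

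**Figure D4:**
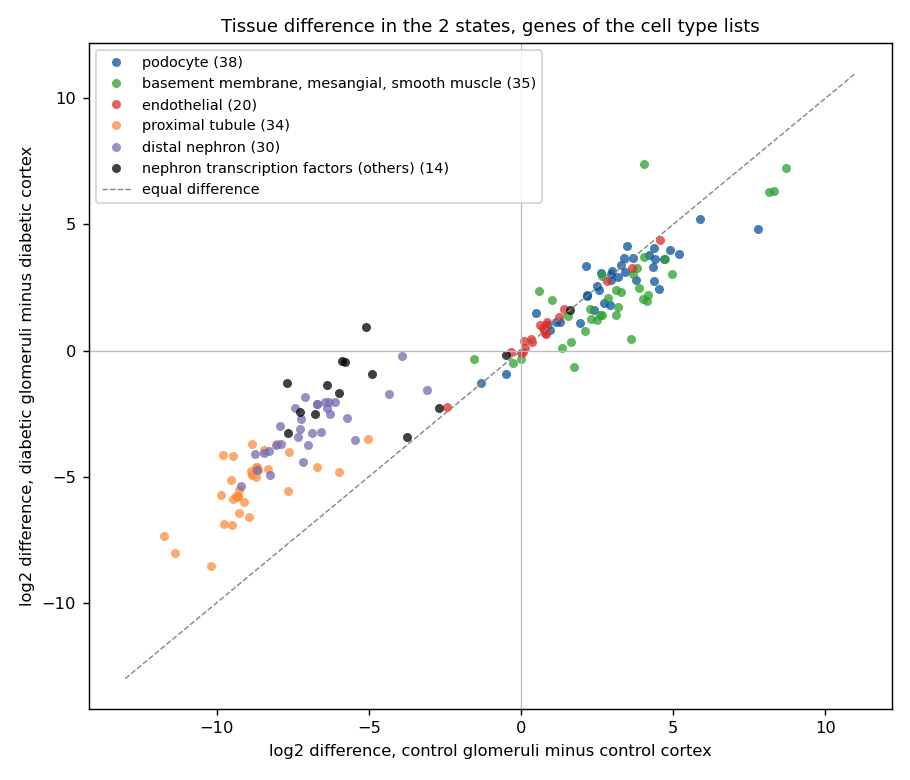
Log2 tissue difference of each gene of the cell type lists in control mice (horizontal) and diabetic mice (vertical), coloured by list, with the number of genes in brackets; the dashed line marks equal differences. Tubule genes lie above the line, nearer to 0 in diabetic mice, podocyte and endothelial genes lie nearer to it, and most muscle and basement membrane genes lie below it.

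The tissue difference turned round for 387 genes, which were called in both states with opposite signs: 244 turned towards glomeruli in the diabetic state and 143 towards cortex. Both differences were at least 2-fold for 122 of them, 101 towards glomeruli and 21 towards cortex. Those described here were chosen after their values were seen. General epithelial genes are among the 101. Krt8, a keratin of simple epithelia, stood at 1099, 1264 and 616 CPM in diabetic glomeruli and 165, 178, 188 and 173 CPM in diabetic cortex (2.50 ± 0.55, adjusted p = 0.00126), whereas control glomeruli were at 2.31, 19.0 and 2.58 CPM (control difference -4.02). Its partner Krt18 stood at 535, 616 and 334 against 23.8, 25.3, 25.6 and 20.7 CPM (4.37 ± 0.63, in controls -1.74) and Krt7 at 600.1, 675 and 322 against 104, 98.3, 114 and 100.1 CPM (2.36 ± 0.21, in controls -2.93). Krt19 was called higher in diabetic glomeruli as well (6.19 ± 0.74). The highest of the 3 values was that of sample 2 for Krt8, Krt18 and Krt7, which is the sample with the lowest tubule transporter levels. The source of the keratin RNA was not tested.

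Also among the 101, and likewise picked for their values, are some genes of epithelial junctions and surfaces. The adhesion gene Epcam went from -4.99 in control to 1.44 in diabetic mice, the claudin genes Cldn3 from -3.81 to 2.31 and Cldn7 from -3.43 to 2.51, and the membrane protease gene St14 from -4.18 to 1.48. Grhl2, a transcription factor of epithelial junctions, stood at 26.7, 26.0 and 16.5 against 8.32, 7.28, 10.9 and 7.60 CPM in diabetic mice and at 0.192, 0.238 and 0.0795 CPM in control glomeruli (1.44 ± 0.28, adjusted p = 3.68e-04, in controls -6.05). Lamb3, a laminin chain of epithelia under repair, stood at 212, 249 and 108 against 3.42, 3.45, 3.85 and 2.35 CPM (5.86 ± 0.80, in controls -2.25). Clu, which encodes the secreted chaperone clusterin, stood at 3141, 3393 and 2930.2 against 595, 659, 711 and 625 CPM (2.28 ± 0.32, adjusted p = 2.71e-05, in controls -2.63).

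Fewer genes turned towards cortex. Bmp4, a growth factor of stroma and ureter, stood at 14.1, 14.4 and 16.6 CPM in diabetic glomeruli and 45.5, 46.5, 48.6 and 41.0 CPM in diabetic cortex (-1.60 ± 0.20, adjusted p = 7.63e-06), against 2.43 in controls. The complement gene C3 stood at 20.2, 9.84 and 14.3 against 80.8, 240.0, 219.8 and 122 CPM (-3.48 ± 0.47, adjusted p = 2.19e-05, in controls 3.03), with diabetic cortex sample 1 the lowest of its group. The retinal dehydrogenase gene Aldh1a1 (-4.62 ± 0.54, in controls 1.08) and the chemokine gene Cxcl1 (-2.93 ± 1.08, in controls 4.56) turned in the same direction.

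**Figure D5:**
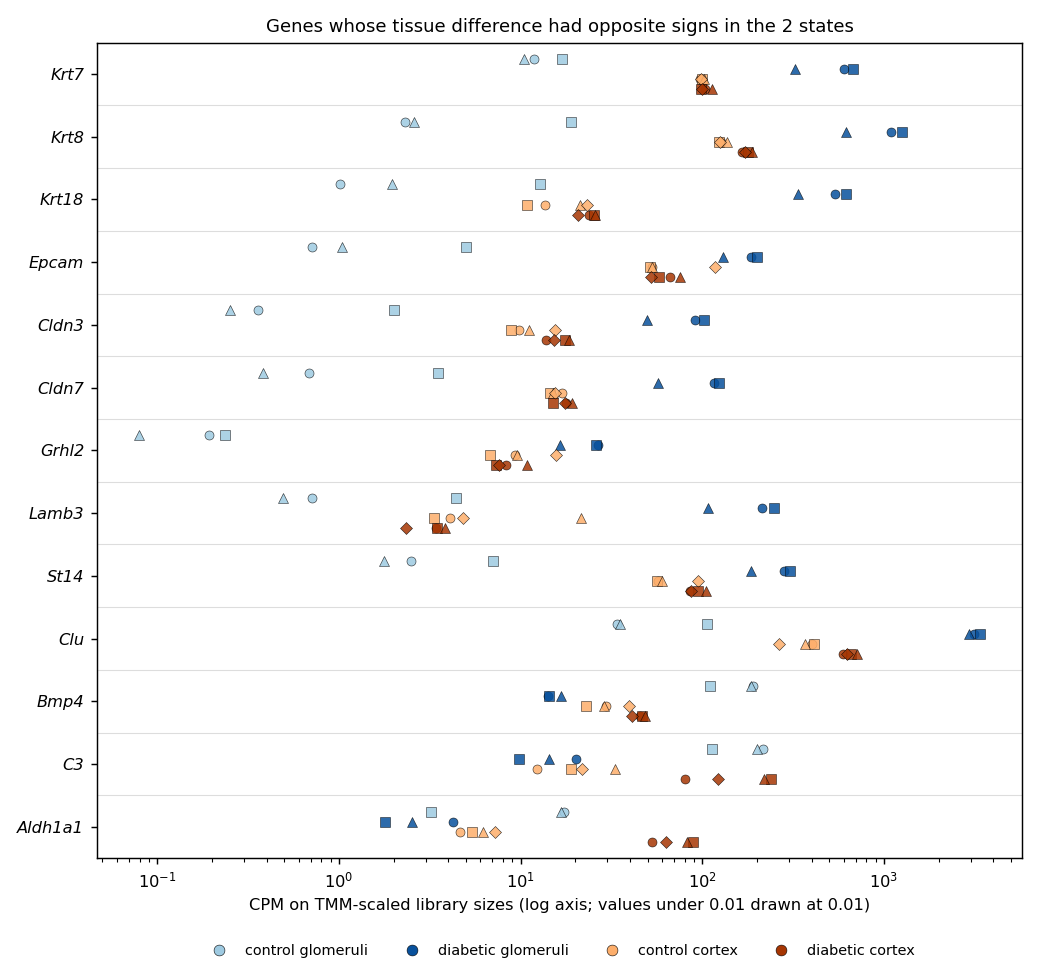
CPM of 13 genes called in both states with opposite signs, in each sample of the 4 groups on a log axis; circles, squares, triangles and diamonds are samples 1, 2, 3 and 4, with glomerular pairs 3+4 (control, triangles) and 1+4 (diabetic, circles) summed. From Krt7 to Clu the diabetic glomerular samples lie to the right of all cortex samples and the control glomerular samples to the left of the diabetic ones; for Bmp4 and C3 the control glomerular samples lie to the right of the diabetic ones, and for Aldh1a1 the 2 glomerular groups overlap.

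Changes between states were ranked by size among called genes whose log2 CPM averaged 1 or more over the groups, with no overlap between diabetic and control glomerular samples, without names that end in Rik or are Gm and a number. These limits leave out some larger changes, for example 2310007B03Rik (10.00) by its name and Cxcl1 (-7.50) and Aldh1a1 (-5.70) by overlapping samples. Within them, Prss22 (difference 14.58), Plekhs1 (10.57), the surface gene Msln, mesothelin (9.50), Moxd1 (8.39) and Wnt7a (8.32) gained in glomeruli. Msln stood at 103, 121 and 32.6 CPM in diabetic and 0.247, 0.686 and 0.238 CPM in control glomeruli, with 0 to 0.695 CPM in diabetic cortex, and Plekhs1 at 61.1, 72.3 and 22.3 and 0, 0.0528 and 0.0265 CPM. Psca (9.64), Slc22a29 (9.55) and Ugt1a2 (8.70) moved the same way from levels near 0 in control glomeruli, and the first and the last of these were not called in the diabetic contrast (adjusted p = 0.687 and 0.121). In the other direction stood the chemokine genes Ccl7 (-9.47) and Ccl2 (-7.34), which were at 1.43, 0.982 and 2.66 and 12.9, 15.0 and 15.4 CPM in diabetic glomeruli and no longer called there (adjusted p = 0.631 and 0.125). Gdf6 (-9.02), the collagen receptor gene Itga11 (-8.72), P4ha3 (-5.82), Ifi27l2b (-5.60) and Cdsn (-5.05) narrowed with them, and C3 (-6.51) turned round as given above. Apart from C3, each of the genes ranked here had at least 1 group with a mean under 1 CPM, and the size of such differences depends on how the fit treats low counts.

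Signals that pass between glomerular cells were mostly higher on the glomerular side. Of 40 ligands and receptors 22 were called higher in diabetic glomeruli, 11 lower and 7 not, against 37.7% of all genes called higher and 37.0% lower. Between states 11 shifted towards glomeruli and 11 towards cortex, against 18.8% and 16.2% of all genes. Pdgfb, the endothelial ligand of the mesangial receptor, stood at 605, 699.8 and 406 CPM against 27.8, 30.4, 37.5 and 35.5 CPM (4.12 ± 0.19, adjusted p = 5.41e-10). Its difference widened from 2.58 in control mice (difference 1.54 ± 0.25, adjusted p = 4.26e-04), while that of its receptor gene Pdgfrb narrowed. Jag1, a Notch ligand, stood at 369, 426 and 473 against 17.4, 21.0, 22.7 and 16.4 CPM (4.45 ± 0.15, adjusted p = 8.46e-11) and widened from 3.14. Tgfb2 (5.18 ± 0.18), the semaphorin and VEGF receptor gene Nrp1 (3.24 ± 0.09) and the ephrin gene Efnb1 (2.59 ± 0.10) had the smallest adjusted p after it. Bmp7, which protects nephron epithelia, was lower in glomeruli by counts (42.4, 40.0 and 33.1 against 49.6, 53.8, 53.4 and 62.3 CPM, -0.51 ± 0.12, adjusted p = 0.00141), but on log2(FPKM + 1) it stood at 0.0952 and was not called.

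The histone methyltransferase Nsd2 and the Hippo pathway, which the title of the series names, were read as items of their own. Nsd2, which dimethylates lysine 36 of histone H3, stood at 72.0, 76.4 and 75.3 CPM in diabetic glomeruli and 38.8, 36.7, 35.95 and 37.7 CPM in diabetic cortex (1.00 ± 0.10, adjusted p = 1.11e-06). The groups did not overlap. In controls the difference was -0.17 ± 0.11 (adjusted p = 0.151), and the test between states gave 1.17 ± 0.15, adjusted p = 7.17e-05. Against 37.7% of all genes called higher, 9 of 12 enzymes of this mark were called higher in diabetic glomeruli and 1, Setmar (-1.07), lower. The demethylase genes Kdm4a (0.66 ± 0.06), Kdm2b (0.90 ± 0.08) and Kdm4b (0.57 ± 0.08) were among them. By the test between states Nsd2 shifted towards glomeruli and Kdm4b towards cortex (-0.58 ± 0.12, adjusted p = 0.00255), and without control glomerular sample 3+4 the test called 4 genes towards glomeruli.

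Of 23 Hippo components 20 were called higher in diabetic glomeruli and 1 lower, against 37.7% and 37.0% of all genes. In controls 19 were called higher and 2 lower. Between states 6 shifted towards glomeruli and 7 towards cortex, against 18.8% and 16.2% of all genes. The gene called lower in diabetic glomeruli, Mob1b (-1.41), was called higher on log2(FPKM + 1). Yap1, the transcriptional co-activator at the end of the pathway, stood at 188, 183 and 196 CPM against 96.4, 102, 102 and 96.4 CPM (0.93 ± 0.10, adjusted p = 1.84e-06, in controls 1.51), and Wwtr1, which encodes its relative TAZ, at 182, 188 and 232 against 81.7, 83.9, 85.2 and 87.9 CPM (1.24 ± 0.08, adjusted p = 1.80e-08, in controls 1.69). Both differences were narrower in diabetic mice (-0.59 ± 0.14, adjusted p = 0.00689, and -0.45 ± 0.12, adjusted p = 0.0113). The kinase gene Stk4 (1.58 ± 0.05), its partner gene Mob1a (1.23 ± 0.06), the scaffold gene Frmd6 (3.91 ± 0.14) and the angiomotin gene Amotl1 (4.07 ± 0.19) had the smallest adjusted p. Wwc1, which encodes the upstream regulator KIBRA, stood at 328, 347 and 198 against 295, 253, 271 and 249 CPM and was not called (0.13 ± 0.17, adjusted p = 0.525), while its control difference was -2.68 (difference 2.81 ± 0.25, adjusted p = 3.88e-06). Amot, which holds YAP at junctions, went from -0.11 to 1.70 (difference 1.82 ± 0.18, adjusted p = 8.16e-06).

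Of 22 target genes of YAP and TAZ 20 were called higher in diabetic glomeruli and 2 lower, Igfbp3 (-2.79) and Nt5e (-1.48), the latter not called on log2(FPKM + 1). The list's median was 2.69, against 2.96 in controls, where 20 genes were called higher and 2 lower as well. Over all genes 37.7% were called higher in diabetic glomeruli and 37.0% lower. Between states 3 genes of the list shifted towards glomeruli and 10 towards cortex, against 18.8% and 16.2% of all genes. Lats2, Ptpn14, Amotl1 and Amotl2 belong to this list and to the Hippo list. Ccn2, connective tissue growth factor, stood at 3291, 3683 and 3878 CPM against 112, 114, 119.8 and 112 CPM (4.98 ± 0.16, adjusted p = 6.41e-11), and Ccn1 at 912, 1061 and 815 against 80.3, 92.4, 139 and 113 CPM (3.13 ± 0.17, narrowed from 5.54). Ajuba (2.82 ± 0.11) and Crim1 (2.41 ± 0.14) stood on the same side.

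Genes of tubular injury and repair were found in glomeruli more than in cortex. Of 18 tested, 13 were called higher in diabetic glomeruli, 1 lower and 4 not, against 37.7% of all genes called higher. Between states 6 shifted towards glomeruli and 3 towards cortex, against 18.8% and 16.2% of all genes. The 3 are thus near the share over all genes. Cd44, the hyaluronan receptor of injured epithelia and of mesangial cells, stood at 219, 251 and 259 CPM against 4.83, 11.8, 14.7 and 6.45 CPM (4.68 ± 0.38, adjusted p = 1.85e-07). The transcription factor genes Sox4 (4.07 ± 0.16) and Sox9 (47.7, 52.5 and 41.2 against 4.84, 5.59, 8.18 and 3.92 CPM, 3.06 ± 0.29) marked glomeruli in controls as well (4.01 and 2.71; differences 0.06 ± 0.21 and 0.35 ± 0.42, neither called). Plin2, a lipid droplet gene, was at 1.61 ± 0.15 (in controls 0.64). Lcn2, which encodes the injury marker NGAL, stood at 431, 482 and 226 against 8.82, 23.7, 21.9 and 7.94 CPM (4.61 ± 1.24, adjusted p = 0.00455). Havcr1, which encodes KIM-1, stood at 109, 124 and 177 against 20.4, 68.7, 76.2 and 37.8 CPM and was not called (1.43 ± 0.94, adjusted p = 0.186). In control glomeruli sample 2 stood apart for both, at 35.5 CPM for Lcn2 and 28.8 CPM for Havcr1, with the other 2 samples under 1 CPM. Without it Havcr1 was called higher in diabetic glomeruli (1.45, adjusted p = 0.0110), and its difference between states was 3.20 (adjusted p = 0.0146) in place of -0.79.

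Metabolic genes still separated the tissues. Of 22 genes of fatty acid oxidation 21 were called lower in diabetic glomeruli and 1, Hadha, was not called (median -2.85), against 37.0% of all genes called lower. Acadm, medium chain acyl-CoA dehydrogenase, stood at 85.7, 50.6 and 64.6 CPM against 1182, 1018, 1047 and 898 CPM (-3.95 ± 0.18, adjusted p = 4.70e-10) and Cpt2, which brings fatty acids into the mitochondrial matrix, at 35.5, 26.5 and 30.2 against 311, 313, 299 and 272 CPM (-3.28 ± 0.11), with control differences of -4.32 and -3.06. Eci1 was at -2.14 ± 0.10 and Etfdh at -1.89 ± 0.08, but on log2(FPKM + 1) Etfdh was called higher in glomeruli (0.294). Ppargc1a, a regulator of mitochondrial genes, narrowed from -7.17 to -2.86 and stood at 16.1, 2.22 and 7.11 CPM, in the order of the tubule transporters. The test between states shifted 7 of these genes towards glomeruli and 2 towards cortex, against 18.8% and 16.2% of all genes. Without diabetic glomerular sample 1+4 it shifted 2 and 3. The list's median shift was 0.04, and it was -0.39 with sample 2 as the only diabetic glomerular sample.

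All 20 tested respiratory chain genes were called lower in diabetic glomeruli (median -1.70), Ndufv1 by -2.07 ± 0.09 and Uqcrc1 by -1.82 ± 0.08, but 7 of them, Ndufa4 among them (-1.12 on counts and 0.825 on log2(FPKM + 1)), were called higher on log2(FPKM + 1). The direction of those 7 thus depends on the authors' table. Of 21 genes of glucose handling 13 were called lower and 6 higher. The fructose kinase gene Khk stood at 33.0, 5.55 and 18.3 against 733, 813, 694 and 749 CPM (-5.30 ± 0.47, adjusted p = 4.40e-07) and Pcx, pyruvate carboxylase, at 49.1, 10.5 and 30.6 against 943, 858, 824 and 909 CPM (-4.88 ± 0.42). Pkm, pyruvate kinase of glycolysis, stood at 1567, 1634 and 2109 against 324, 356, 389 and 341 CPM (2.33 ± 0.14, adjusted p = 5.96e-09), and the glucose transporter gene Slc2a1 at 236, 260.0 and 187 against 61.0, 40.7, 52.6 and 47.6 CPM (2.17 ± 0.17). Ldhb narrowed from -5.75 to -1.81 (difference 3.94 ± 0.27, adjusted p = 5.09e-07). Pfkp was called lower on counts (-0.91 ± 0.14) and higher on log2(FPKM + 1) (1.05).

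Red cell genes marked cortex, and the immune lists held genes of either side or not called. Of 18 myeloid genes 5 were called lower in diabetic glomeruli, 2 higher and 11 not, a smaller share of lower calls than the 37.0% over all genes, with a median difference of 0.06. On log2(FPKM + 1) 8 were called higher and 3 lower, so the side to which this list leans depends on the authors' table. The class II genes Cd74 (81.1, 28.4 and 109 against 426, 686, 614 and 526 CPM, -2.95 ± 0.42, adjusted p = 3.37e-05), H2-Aa (-3.72 ± 0.45) and H2-Ab1 (-3.29 ± 0.44) were lower, and genes of this family share sequence, so reads may be split among them. Csf1r (-1.20 ± 0.32) and Ptprc (-1.21 ± 0.27) complete the lower genes, but on log2(FPKM + 1) Ptprc was called higher (0.529). Mrc1 (1.36 ± 0.28) and Itgam (2.46) were higher. Lyz2, lysozyme, went from 4.57 in control to 0.59 in diabetic mice (difference -3.98 ± 0.60, adjusted p = 3.59e-04). Sample 3 was the highest glomerular sample for 17 of the 18 genes, with the summed list at 30.3, 20.6 and 60.1% of the diabetic cortex mean, and without it the test between states called 10 genes towards cortex in place of 3 and 1 towards glomeruli in place of 2. Of 10 lymphocyte genes 5 were called lower and 5 were not called, with Cd3e at 0.0892, 0.0228 and 0.0244 against 0.926, 1.09, 1.96 and 1.96 CPM (-4.80 ± 0.62). All 6 red cell genes were lower, Hba-a1 at 21.0, 12.5 and 9.46 against 239.8, 138, 185 and 214 CPM (-3.75 ± 0.32). Slc4a1, which red cells and intercalated cells share, was at -3.72 ± 0.62.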

How the data were processed

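RNA of isolated glomeruli and of renal cortex was sequenced from diabetic and control mice, 4 libraries per group. Per the labels' protocols, RNA was extracted with a Qiagen RNeasy kit and libraries were made with a SMARTER mRNA-Seq kit. GRCm38 and mm10 are the builds named, per the submitters' processing notes. The aligner, counter, annotation and strand setting were not given in the sources used here. The authors deposited raw counts per gene symbol for glomeruli. The cortex table the authors deposited holds whole numbers per Ensembl gene that behave like estimated counts made whole, and these were used as they stand. FPKM tables of both tissues were also deposited by the authors, and log2 values were computed here from the deposited FPKM.

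Cortex IDs were named with GENCODE M21 (GRCm38), and 19050 genes were joined by symbol, which held at least 93.58% of the counts of each glomerular library and 79.154% of each cortex library. Near-identical glomerular libraries were summed. The 4 groups were fitted in 1 edgeR 4.0.16 quasi-likelihood model (R 4.3.3) after filterByExpr and TMM scaling, with Benjamini-Hochberg adjustment over 16512 genes and a threshold of 0.05. Contrasts were glomeruli minus cortex in each state and their difference. Alternatives used DESeq2 1.42.0, limma 3.58.1 on log2(FPKM + 1) and log2(FPKM + 0.1), other scaling and filters, and samples left out. On simulated data with known changes the test recovered 99% of genes changed 2-fold and 100.0% of those changed 4-fold, over 14763 genes. The simulation gave all genes the same dispersion, left genes of low level unchanged and held no difference in counting between tissues. These rates therefore do not carry over to the real samples.

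Protein-coding genes of the mitochondrial genome took 2.37 to 5.64% of counts in glomerular libraries. In cortex libraries all genes of the mitochondrial genome in the annotation were counted, and they took 12.3 to 14.9%. The 2 ranges cover different gene sets and are not compared. The members and lists were chosen with earlier results of these data known. Named genes were the 12 largest differences each way in the diabetic contrast and the 8 largest each way in the difference between states, among called genes whose log2 CPM averaged 1 or more over the groups and whose samples did not overlap (diabetic and control glomeruli for the latter), without names ending in Rik or made of Gm and a number; up to 4 members of each list by adjusted p in the diabetic contrast and up to 2 by that between states, and Nsd2, Yap1 and Wwtr1; members are also named where a count of a list is 5 or fewer. Nphs1, Col4a3, Pdgfb, Lrp2, Slc34a1, Slc5a2, Hnf4a, Lcn2, Havcr1, Krt19 and most genes whose difference turned round were chosen after their values were seen. Some list members that the rule would name are not reported here.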

Additional observations from a re-analysis of the deposited data

Results flagged for a closer look

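For 114 of 185 named genes the tissue difference itself differed between diabetic and control mice by the edgeR test between states (adjusted p under 0.05 over all genes, of which 35.0% were called). Some of these genes were named for the result of this same test or after their values were seen. The count is therefore not read against the share over all genes. It shifted towards glomeruli for 69 and towards cortex for 45. Each value is the diabetic minus the control difference on the log2 scale.

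Genes of the tubule and nephron factor lists shifted towards glomeruli. The larger shifts were those of Tfap2b (6.41), Lhx1 (5.45), Cldn19 (5.24), Cldn16 (5.17), Scnn1g (4.94), Slc12a3 (4.57), Slc5a2 (4.48), Atp6v1g3 (4.37), Esrrg (4.36), Slc26a4 (4.33), Slc4a9 (4.31), Hsd11b2 (4.29) and Slc4a1 (4.17). Smaller ones were those of Hnf4a (4.12), Lrp2 (4.08), Avpr2 (4.08), Aqp6 (3.92), Slc34a1 (3.92), Cldn10 (3.84), Calb1 (3.76), Trpm6 (3.69), Ggt1 (3.60), Aqp3 (3.24), Egf (3.06), Slc12a1 (2.75), Cyp7b1 (2.58) and Slc7a13 (1.64). The part of tubule RNA in the glomerular samples in these shifts was not tested. The summed segment lists are given with the tubule results.

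Other genes shifted in the same direction, among them Prss22 (14.58), Plekhs1 (10.57), 2310007B03Rik (10.00), Psca (9.64), Slc22a29 (9.55), Msln (9.50), Ugt1a2 (8.70), Moxd1 (8.39), Wnt7a (8.32), Lamb3 (8.11), Grhl2 (7.49), Krt8 (6.51), Epcam (6.43), Cldn3 (6.12), Krt18 (6.11), Cldn7 (5.94), Krt19 (5.71), St14 (5.66), Krt7 (5.29), Clu (4.91) and Ppargc1a (4.31). Below these stood Ldhb (3.94), Pax2 (3.39), Wwc1 (2.81), Cd74 (2.14), Amot (1.82), H2-Aa (1.79), Agrn (1.76), Khk (1.74), Cd9 (1.71), Pdgfb (1.54), Bmp7 (1.44), Jag1 (1.31), Nsd2 (1.17), Amotl1 (1.04), Cd2ap (1.00), Plin2 (0.97), Ndufa4 (0.78), Nt5e (0.66), Mob1b (0.66), Etfdh (0.30) and Stk4 (0.29).

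Towards cortex the larger shifts were those of Ccl7 (-9.47), Gdf6 (-9.02), Itga11 (-8.72), Cxcl1 (-7.50), Ccl2 (-7.34), C3 (-6.51), P4ha3 (-5.82), Aldh1a1 (-5.70), Ifi27l2b (-5.60), Cdsn (-5.05), Bmp4 (-4.03), Lyz2 (-3.98), Dcn (-3.19), Myh11 (-3.17), Foxd1 (-2.96), Ccn1 (-2.41), Rgs5 (-2.37), Col4a2 (-2.19), Col1a2 (-2.16), Tagln (-1.99), Col4a1 (-1.96) and Acta2 (-1.86). Smaller ones were those of Pdgfrb (-1.68), Foxc2 (-1.61), Crim1 (-1.48), Kirrel (-1.37), Mylk (-1.32), Ncam1 (-1.29), Cspg4 (-1.28), Col4a3 (-1.26), Igfbp3 (-1.24), Inf2 (-1.09), Pfkp (-1.09), Tgfb2 (-0.93), Lmx1b (-0.90), Ccn2 (-0.78), Plce1 (-0.76), Smtn (-0.72), Nes (-0.68), Fhl2 (-0.64), Yap1 (-0.59), Kdm4b (-0.58), Efnb1 (-0.54), Nrp1 (-0.50) and Wwtr1 (-0.45).

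In 13 of the 185 named genes 1 of the 4 diabetic cortex samples lay far from the other 3. Chance gives such a spacing in about 1 in 20 groups, so with 185 genes looked at many of these flags can be chance. For Krt17, Cdkn2a and P4ha3 the other 3 samples were at 0 CPM, and the flag rests on few counts. The CPM of that sample was 0.118 for Krt17, 0.141 for Cdkn2a, 1.57 for Pakap, 151 for Entpd4, 1.99 for Psca, 0.0703 for P4ha3, 16.0 for Inf2, 123 for Cd2ap, 3.36 for Ncam1, 1.32 for Tgfb2, 26.9 for Nid2, 203 for Igfbp3 and 56.6 for Csf1r.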

How the results depend on the processing

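Calls in the diabetic contrast moved little on counts: leaving out 1 sample gave 5892 to 6392 genes higher and 5643 to 6125 lower. In the difference between states the ranges were 2439 to 3068 and 2228 to 2766, and markers kept ranged over 1299 to 1387 for glomeruli and 2225 to 2446 for cortex. On log2(FPKM + 1) 4017 genes were called lower in place of 6107, and kept cortex markers were 708; on log2(FPKM + 0.1) they were 1252 and kept glomerular markers 2078. With a log2 difference of at least 1, 2684 glomerular and 3690 cortex markers were kept, and with at least 3, 666 and 1524. With diabetic glomerular library 2 alone, 1778 genes shifted towards glomeruli in place of 3105 and 2023 towards cortex in place of 2681. The cause of these changes was not tested, apart from the lower or higher bound on the difference.

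Of 185 named genes, 170 were called in the diabetic contrast, and 6 of these lost the call without some sample: Agtr1a, Cxcl1, Mylk, Pdgfra, Slc12a3 and Slc22a29. Of 114 called between states 9 did: Etfdh, H2-Aa, Khk, Nt5e, P4ha3, Plce1, Slc12a1, Slc7a13 and Ugt1a2. Many of the named genes were picked for a small adjusted p or a large difference in these tests, and these counts describe genes so chosen. The diabetic contrast changed sign on log2(FPKM + 1) and log2(FPKM + 0.1) for Bmp7 (0.095 and 0.10), Pfkp (1.05 and 1.14), Etfdh (0.29 and 0.30), Ndufa4 (0.83 and 0.83), Mob1b (1.14 and 1.31), Nt5e (0.27 and 0.29), Agtr1a (0.14 and 0.14) and Ptprc (0.53 and 0.81). The difference between states changed sign there for Sp6 (-0.96 and -1.08), Lrrc4c (-0.59 and -1.50) and Cdkn2a (2.49 and 2.54). With library 2 alone it changed sign for Calb1 (-0.34), Khk (-0.049) and Pcx (-0.78), and for Havcr1 it ranged from -1.34 without control glomerular sample 1 to 3.20 without control glomerular sample 2. The cause was not tested.

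With the replicate number as a block and all 16 libraries separate, 6111 genes were called higher and 6089 lower, and 3127 and 2750 between states. Same-numbered glomerular and cortex libraries did not deviate together (r across genes -0.071 to 0.043), so the numbers were not taken to pair the samples.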
